A study of Heterocephalus glaber with 23 samples.

Results

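Liver transcriptomes of breeding male naked mole-rats (Heterocephalus glaber) were compared with those of non-breeding males. The comparison took the 12 libraries whose titles carry the male breeder or male non-breeder label, 6 of each, out of 23 liver libraries. The other libraries were 6 of female breeders and 5 of female non-breeders. Genes were members if they passed a filter on low counts, which left 12306 of 16339 rows. Male breeders had been taken as non-breeding animals from large, long-established colonies, each was paired with an unrelated female, and they were killed within days of their partner giving birth, once pairs had bred repeatedly. Male non-breeders were litter brothers that stayed in the home colony as workers. No group carried a genetic change or received a drug as a treatment. By the paper's methods, every animal was under isoflurane when it was decapitated for tissue collection. Ages lay between 2.7 and 4.1 years, at 3.52 ± 0.571 years in breeders and 3.42 ± 0.564 years in non-breeders (SD, n = 6 in each). Pairing, housing, colony and time since a birth go with status in this design and cannot be told apart from it. Which brothers share a litter is not given in the labels, so animals were treated as independent.

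Naked mole-rats live in colonies in which a queen and 1 or a few consorts breed while the other adults are reproductively suppressed and work. The mammalian liver secretes most plasma proteins, among them albumin, clotting factors, complement and the acute phase proteins that are induced by inflammatory cytokines. It also binds and inactivates steroids and answers growth hormone with insulin-like growth factor 1 (IGF1). In rats and mice, liver gene expression differs between adult males and females under sex hormone and growth hormone control. The comparison asked whether the liver of a male differs once it breeds. Gene roles below are those known in human and mouse, since symbols were assigned by similarity to human transcripts.

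Library totals lay between 13364037 and 20464409 counts, with 16061468 ± 1993311 in breeders and 17789674 ± 2154883 in non-breeders (SD, n = 6 in each, exact two-sided permutation test over 924 splits, p = 0.169). Levels are given as CPM, a gene's counts scaled to a fixed library size after TMM normalization. Hepatocyte identity held in every library: albumin (ALB) took between 7.86% and 14.8% of the counts. The ALB level was between 97400 and 145000 CPM in breeders and between 87600 and 176000 CPM in non-breeders. Striated muscle markers summed to at most 12.1 CPM in any male library. KIF4A, a chromosomal kinesin, was between 15.9 and 28.8 CPM in breeders and between 15.9 and 32.4 CPM in non-breeders, so all 12 male libraries shared a gene that is near 0 in the females of this series, where breeders averaged 0.153 ± 0.158 CPM (SD, n = 6) and the non-breeding females 0.231 ± 0.171 CPM (SD, n = 5). Male non-breeder 3 stood apart: its log2 CPM correlated with those of its own group at a mean r of 0.910, against 0.956 or more for every other male library. MTRNR2L4, a nuclear copy of a mitochondrial ribosomal RNA gene, took 11.9% of its counts and 8.24% in male breeder 5, against 3.47% to 5.99% in the other male libraries. Across genes, the median SD of log2 CPM was 0.286 in breeders and 0.373 in non-breeders, and 0.24 in the latter once number 3 was left out.

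No gene passed an adjusted p of 0.05. With edgeR's quasi-likelihood test, 0 of 12306 genes (0%) differed between male breeders and male non-breeders, and the smallest adjusted p was 0.234. At an unadjusted p under 0.05 there were 723 genes (5.88% of those tested), of which 328 were higher (2.67%) and 395 lower (3.21%) in breeders. These shares are the background for the list counts of the same fit given below. The ranges of breeders and non-breeders did not overlap for 53 genes (0.431%), with breeders above in 25 (0.203%) and below in 28 (0.228%). The differences were small, with a median absolute log2 difference of 0.131 beside a median SE of 0.205, and 159 genes lay over 2-fold either way. The median over all genes was -0.02 on the log2 scale. Of all genes 6574 (53.4%) were below 0 and 5732 above, the background for counts of list members by sign. DESeq2 called 2 genes in a fit of all 23 libraries and 13 in a fit of the 12 male libraries, and limma voom called 1, the sodium leak channel gene NALCN. Without male breeder 2, the count of genes higher at an unadjusted p under 0.05 dropped from 328 to 202.

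**Figure D1:**
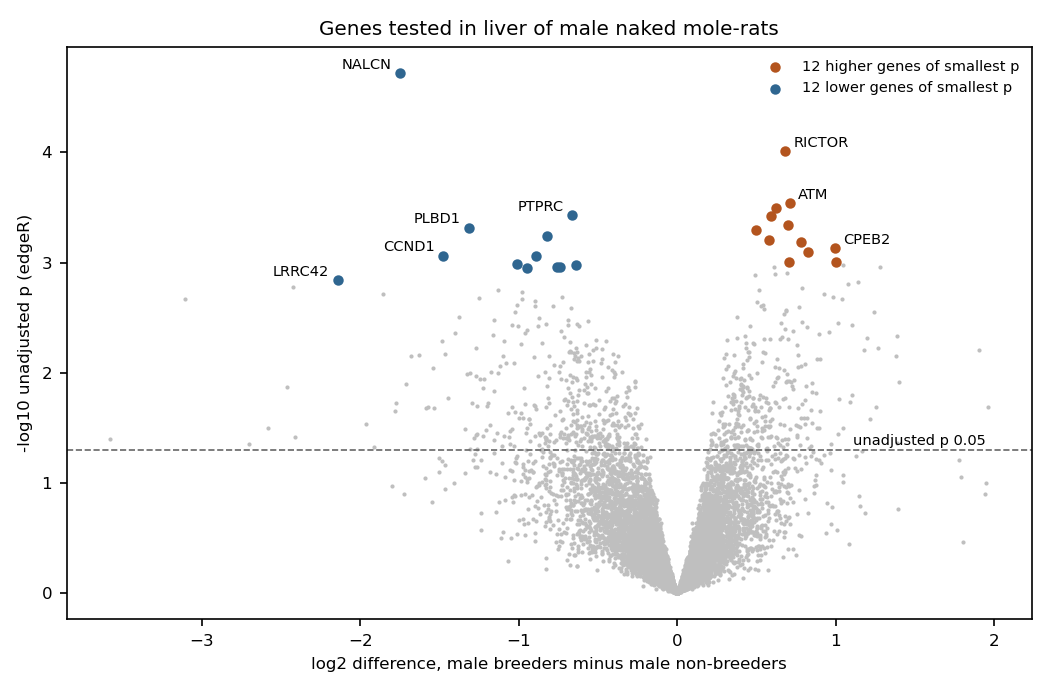
Each point is 1 of 12306 genes, with the log2 difference between male breeders and male non-breeders on the x axis and -log10 of the unadjusted p of edgeR on the y axis; coloured points are the 12 higher and 12 lower genes of smallest p. NALCN has the smallest p at a log2 difference of -1.75, and RICTOR at 0.68 the smallest among the higher genes.

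NALCN, a sodium leak channel best known from neurons, had the smallest p of all genes. Its level in breeders was 0.457 CPM at the lowest, 0.585 at the median and 0.848 at the highest, and in non-breeders 0.899, 1.97 and 3.57 CPM. All 6 breeders lay below all 6 non-breeders, although the lowest non-breeder, number 3, was close to the highest breeder, number 4. The log2 difference was -1.75 ± 0.33 (SE, 3.35-fold lower, edgeR, adjusted p = 0.234). It passed with DESeq2 on all libraries (adjusted p = 0.00762), with DESeq2 on the males (adjusted p = 0.00455), with limma voom (adjusted p = 0.0351) and with edgeR without male non-breeder 3 (adjusted p = 0.0321). Without male breeder 2 the adjusted p was 1, the highest of all alternatives. The level is low, with every breeder under 1 CPM.

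Among the genes with higher levels in breeders, RICTOR had the smallest p. It is the defining subunit of mTOR complex 2, a kinase complex that acts on AKT. Its level was 21.9, 26.8 and 41.3 CPM (lowest, median, highest) in breeders and at 15.2, 19.6 and 21.2 CPM in non-breeders. The groups did not overlap, and breeders 2 and 5 were far above the rest of their group. The log2 difference was 0.68 ± 0.14 (SE, edgeR, adjusted p = 0.526), and DESeq2 on all libraries called it (adjusted p = 0.049). Over the alternatives its adjusted p ran from 0.049 to 1, the latter without breeder 2. The other mTOR genes did not stand out: 1 of 29 tested members of a list of mTOR complexes and regulators had an unadjusted p under 0.05, which was RICTOR, and the list's median log2 difference was -0.01. MTOR itself was at -0.01 and RPTOR, the defining subunit of mTOR complex 1, at 0.01.

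Histone lysine methyltransferases of the KMT2 family, which methylate lysine 4 of histone H3, included 3 genes with log2 differences above 0 at an unadjusted p under 0.05. KMT2A was at 21.8, 23.3 and 38.7 CPM in breeders and at 13.9, 16.5 and 19.4 CPM in non-breeders. Every breeder was above every non-breeder, with breeder 2 at the top. KMT2C was at 41.1, 49.4 and 69.5 CPM in breeders and at 30.4, 38.4 and 40.4 CPM in non-breeders, again without overlap. KMT2D was at 17.8, 29 and 67.3 CPM in breeders and at 16, 19.9 and 29.9 CPM in non-breeders, where the ranges overlapped and breeders 2 and 5, at 67.3 and 46.9 CPM, were far above the others. The log2 differences were 0.62 ± 0.15, 0.50 ± 0.12 and 0.73 ± 0.28 (SE, edgeR, adjusted p = 0.526, 0.526 and 0.671). Of 20 tested histone lysine methyltransferases, 3 (15%) were higher at an unadjusted p under 0.05 and 0 lower, beside 2.67% and 3.21% of all genes, and the median log2 difference was 0.20. Without male non-breeder 3 the count was 5 (25%), beside 3.66% of all genes, and the median 0.06. Gene span, the genomic length of a gene in RefSeq (H.glaber_assembly_v1.0, 10934 of 12306 genes matched by symbol), moved with the share of higher genes. In 5 bins of about 2187 genes, from shortest to longest, 1.6%, 1.37%, 2.38%, 3.93% and 3.61% were higher at an unadjusted p under 0.05. Bin 5 was not shifted upward as a whole. Its median log2 difference was -0.02, 45.5% of its genes were above 0 and 3.29% were lower at that p. Long genes were relatively low in male non-breeder 3. Its median deviation from the mean of the 12 male libraries was -0.634 on the log2 scale for the longest minus the shortest genes. The other male libraries lay between -0.212 and 0.207. The part of gene span in the differences of RICTOR, ATM and the KMT2 genes was not tested. KDM6A, a demethylase of histone H3 lysine 27, had a log2 difference of 0.37 ± 0.18 (SE, edgeR, adjusted p = 0.834), and male non-breeder 3 lay far below all others at 5.14 CPM.

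In the DNA damage response, single genes had log2 differences above 0 within a list whose median was close to that of all genes. ATM, the kinase that signals DNA double-strand breaks, was at 15.2, 15.7 and 24.2 CPM in breeders and at 5.52, 10.8 and 13.1 CPM in non-breeders. The groups did not overlap, breeder 2 was the highest and non-breeder 3 the lowest library, and without non-breeder 3 the log2 difference moved from 0.71 to 0.58 (SE with all libraries 0.17, edgeR, adjusted p = 0.526). LIG4, a ligase of end joining, was at 6.51, 7.17 and 8.02 CPM in breeders and at 3.47, 5.53 and 6.46 CPM in non-breeders, also without overlap. BRCA2, a mediator of homologous recombination, had a log2 difference of 0.44 ± 0.17 (SE, edgeR, adjusted p = 0.669). These 3 of 26 tested members (11.5%) had an unadjusted p under 0.05, beside 2.67% of all genes higher at that level. In the list 0 members were lower, beside 3.21% of all genes, and the list's median was 0.01.

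CPEB2, which binds cytoplasmic polyadenylation elements and regulates translation, differed more in size. In breeders it was at 42.5, 61.7 and 121 CPM and in non-breeders at 27.2, 34.2 and 37.3 CPM. All breeders were above all non-breeders, and breeder 5 was far above the others. The log2 difference was 0.99 ± 0.26 (SE, edgeR, adjusted p = 0.526), and DESeq2 on the 12 males called it (adjusted p = 0.0354, over the alternatives up to 1, which was reached without breeder 2 and without breeder 6). FERMT1, an adaptor of integrins, was at 45.3, 56.6 and 105 CPM against 30.7, 36.6 and 45.2 CPM, and PIKFYVE, a kinase that makes phosphatidylinositol 3,5-bisphosphate on endosomes, at 11.4, 13 and 20.9 CPM against 8.35, 9.5 and 10.7 CPM. Neither gene overlapped between the groups. RASAL2, a GTPase-activating protein of RAS, was at 9.47, 13.2 and 19.6 CPM against 4.69, 6.68 and 9.14 CPM, with a log2 difference of 1.01 ± 0.31 (SE, edgeR, adjusted p = 0.599), and was called by DESeq2 on the 12 males (adjusted p = 0.0172, up to 1 without breeder 2). PROCR, the endothelial receptor of protein C, lay between 1.31 and 3.16 CPM in breeders and between 0.569 and 1.21 CPM in non-breeders. OR10H3, a gene of the olfactory receptor family whose near-identical copies may share reads, was between 1.03 and 2.02 CPM against 0.466 and 0.996 CPM. The remaining higher genes of smallest p were MORC3, ARHGAP32, DCP1A and PLEKHH1, whose groups overlapped, with log2 differences of 0.59 to 1.00. ATG14, a subunit of the kinase complex that starts autophagosomes, had a log2 difference of 0.61 ± 0.16 (SE, edgeR, adjusted p = 0.526) and was the 1 of 30 autophagy genes at an unadjusted p under 0.05.

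Zinc finger genes were seen repeatedly among the higher genes, so those with a symbol of ZNF and a number were counted, a group chosen after its values were seen. ZNF236 was the only 1 among the 12 higher genes of smallest p, at 6.96, 8.12 and 13.4 CPM in breeders and 4.6, 5.69 and 6.8 CPM in non-breeders. Of 238 tested, 191 had a log2 difference above 0, beside 5732 of all 12306 genes. At an unadjusted p under 0.05, 24 (10.1%) were higher, against 2.67% of all genes. At that level 0 of the 238 were lower. The median log2 difference was 0.16 in males, and without male non-breeder 3 the count was 32 of 236 (13.6%), beside 3.66% of all genes. In females, which are other animals, the median of the same genes was 0.14. Many zinc finger genes are close copies of each other, and discarded multiple-mapping reads make their single values uncertain.

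**Figure D2:**
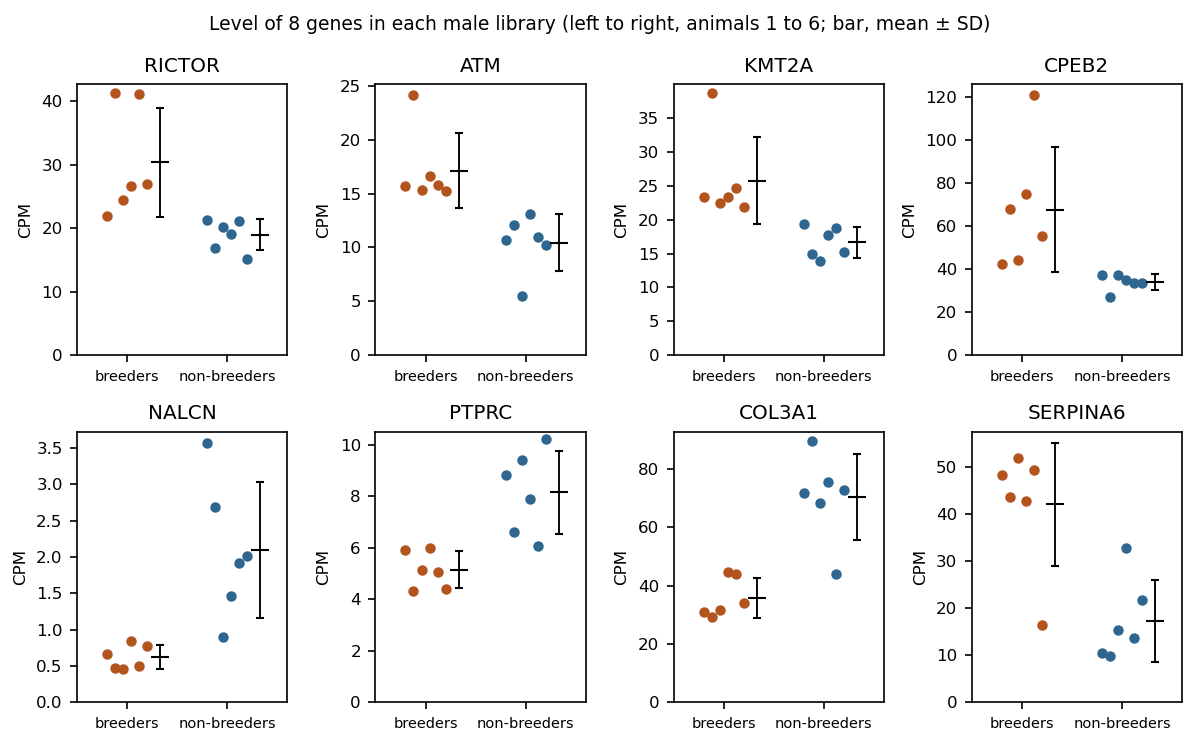
CPM of 8 genes in each male library, with breeders and non-breeders side by side, 1 point per animal in the order 1 to 6 and the mean ± SD beside the points. RICTOR, ATM, KMT2A, CPEB2, NALCN and PTPRC do not overlap between the groups, while male non-breeder 5 brings COL3A1 and male breeder 6 brings SERPINA6 into overlap.

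Besides NALCN, the 12 lower genes of smallest p held genes of white blood cells (PTPRC, DOCK2, CD44, PTAFR and PLBD1), none past an adjusted p of 0.05, and other genes described further on. PTPRC encodes CD45, the surface phosphatase of all leukocytes. It was at 4.31, 5.1 and 6 CPM in breeders and at 6.05, 8.34 and 10.2 CPM in non-breeders, and the groups just did not overlap. Its log2 difference was -0.67 ± 0.16 (SE, edgeR, adjusted p = 0.526). DOCK2, an exchange factor for RAC in migrating leukocytes, was at 1.23, 1.98 and 2.45 CPM in breeders and 2.42, 3.29 and 4.6 CPM in non-breeders. A single non-breeder, number 5, reached into the breeder range. The integrin genes ITGB2 and ITGAM, whose products form a phagocyte receptor of complement, had log2 differences of -0.62 ± 0.19 and -0.68 ± 0.22 (SE, edgeR, adjusted p = 0.599 and 0.607). CD44, PTAFR (the receptor of platelet-activating factor) and PLBD1, a phospholipase B-like protein of myeloid cells, were at -0.89 ± 0.23, -1.01 ± 0.27 and -1.31 ± 0.32 (SE, edgeR, adjusted p = 0.526 for each), and DESeq2 on the 12 males called PLBD1 (adjusted p = 0.0449, up to 1 over the alternatives, without breeder 2). SASH3 and STK17B, an adaptor and a kinase of lymphocytes, were lower without overlap, at log2 differences of -0.85 ± 0.28 and -0.90 ± 0.26 (SE, edgeR, adjusted p = 0.607 and 0.585).

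In all, 10 of 19 tested leukocyte signalling and antigen genes (52.6%) were lower at an unadjusted p under 0.05 and 0 higher, beside 3.21% and 2.67% of all genes. This list, like the other gene lists, was written with earlier results of these data known. Its share is therefore a description and not a test. Their median log2 difference was -0.53, 18 of 19 were below 0, and their summed level was 168 to 229 CPM in breeders and 211 to 259 CPM in non-breeders. Male non-breeder 3, male breeder 5 and a female breeder that also stood apart were then left out. In that fit 6 of 19 (31.6%) were lower at that level, beside 3.17% of all genes, with a median of -0.41. Marker genes of macrophages and Kupffer cells, the resident macrophages of liver, had 3 of 12 members lower (25%), a median of -0.43 and a summed level of 410 to 713 CPM against 605 to 871 CPM. CLEC4F, the Kupffer cell lectin, was at 7.02, 15.9 and 25.8 CPM in breeders and 17, 26 and 35.6 CPM in non-breeders. The macrophage genes MPEG1 and CD68 had log2 differences of -1.09 ± 0.49 and -0.44 ± 0.21 (SE, edgeR, adjusted p = 0.812 and 0.834). CD163, a scavenger receptor often used as a macrophage marker, had 0 counts in the males. In bulk tissue, fewer cells of a type and less RNA per cell cannot be told apart.

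Neutrophil markers rested on single libraries. S100A8, a calcium-binding protein of neutrophils, was at 4.59, 5.8 and 24.7 CPM in breeders and at 6.26, 8.67 and 108 CPM in non-breeders. Only non-breeders 3 and 6 exceeded 50 CPM, with 56.2 CPM in the latter. S100A9 followed the same libraries, with 128 and 96.4 CPM there and at most 15 CPM in the other non-breeders. Of 9 tested markers 3 were lower (33.3%), the median was -1.03 and the summed level was 35.3 to 103 CPM in breeders and 38.7 to 290 CPM in non-breeders. Without male non-breeder 3, 0 of 9 were lower at an unadjusted p under 0.05, beside 3.86% of all genes. Markers of T and NK cells had a median of -0.10 over 6 genes with 0 at that level in either direction. B cell and plasma cell markers were set by 1 animal per group: IGJ, the joining chain of secreted antibodies, was at 213 CPM in non-breeder 6 and 47.1 CPM in breeder 3, and at most 30.1 CPM in the other male libraries. Without non-breeder 6 the median log2 difference of these 3 markers turned from -1.46 to 0.39.

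Genes of inflammatory signalling gave smaller counts. TNFAIP3, an inhibitor of NF-kappa B, was at 1.83, 1.98 and 2.31 CPM in breeders and 1.81, 3.71 and 7.19 CPM in non-breeders. The breeders were nearly alike, while the non-breeders spread over a wide range that took in the breeder values. IL1B, the cytokine interleukin-1 beta, was at 0.952, 1.62 and 2.31 CPM against 1.34, 2.49 and 8.99 CPM, and its log2 difference moved from -1.09 to -0.53 without non-breeder 3. RELB, an NF-kappa B subunit, had a log2 difference of -0.57 ± 0.25 (SE, edgeR, adjusted p = 0.812). These 3 of 25 cytokine and NF-kappa B genes (12%) were lower at an unadjusted p under 0.05, beside 3.21% of all genes. In this list 0 were higher and the median was -0.11. Of 19 interferon-stimulated genes 2 (10.5%) were lower at that level, beside 3.21% of all genes, and the median was -0.02. They were GBP1 at -1.26 ± 0.50 and ISG20 at -1.06 ± 0.50 (SE, edgeR, adjusted p = 0.717 and 0.834). The direction of this list depended on the libraries kept. Without male non-breeder 3, 13 of 19 were above 0, beside 6080 of all 12275 genes, with a median of 0.21. With only the breeders of longer reads, 17 of 19 were below 0, beside 6542 of all 12306 genes, with a median of -0.185.

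Of collagens and other matrix genes, 0 passed with edgeR on all libraries, and 5 were among the 13 calls that DESeq2 made on the 12 male libraries, all with lower levels in breeders. COL3A1, a fibrillar collagen of connective tissue, was at 29.2, 32.8 and 44.8 CPM in breeders and at 44.1, 72.2 and 89.6 CPM in non-breeders. Only non-breeder 5 fell among the breeders. The log2 difference was -0.98 ± 0.28 (SE, edgeR, adjusted p = 0.585), and DESeq2 on the 12 males gave its smallest adjusted p here, 0.000813, while over the alternatives it reached 1. COL1A1, the alpha 1 chain of type I collagen, was at 6.59, 8.79 and 11.3 CPM against 11.2, 14.7 and 22.4 CPM, with the same non-breeder in the breeder range. MMP2, a gelatinase, was at 9.36, 12.1 and 14.7 CPM in breeders and 16.4, 18.3 and 22.9 CPM in non-breeders, and SPARC, a collagen-binding matrix protein, at 45.3, 50.2 and 58.6 CPM against 63.1, 67.2 and 77.1 CPM. Both were without overlap. CTGF, a matrix-associated growth factor and target of transforming growth factor beta, was at 62.1, 102 and 146 CPM against 115, 302 and 422 CPM, with non-breeders 4 and 6 inside the breeder range. DESeq2 on the 12 males also called these genes, at adjusted p of 0.0136 for COL1A1 and MMP2 and 0.0491 for SPARC and CTGF. With edgeR their adjusted p were 0.647, 0.526, 0.799 and 0.599.

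Of 25 tested matrix and basement membrane genes, 24 were below 0 and 6 (24%) were lower at an unadjusted p under 0.05, 0 higher, with a median of -0.28. The 6 included LAMB1, a laminin chain, at -0.62 ± 0.23, and the basement membrane collagens COL4A1 and COL4A2 at -0.49 ± 0.19 and -0.44 ± 0.16 (SE, edgeR, adjusted p = 0.675, 0.717 and 0.669). All 9 stellate cell and fibroblast markers were below 0, 3 of them (COL3A1, COL1A1 and COL1A2, 33.3%) at an unadjusted p under 0.05, with a median of -0.59 and a summed level of 101 to 135 CPM in breeders and 129 to 212 CPM in non-breeders. Leaving out the 3 libraries named above gave 5 of 25 and 2 of 9 lower at that level, beside 3.17% of all genes. Keeping only the 3 breeders of longer reads gave 3 of 25 and 1 of 9, beside 2.29% of all genes. The medians were then -0.32 and -0.59. In endothelial markers 0 of 9 passed that level and the median was -0.13. THBD, thrombomodulin, the thrombin receptor of endothelium and not in that list, was between 18.2 and 20.8 CPM in breeders and between 22 and 26.2 CPM in non-breeders, with a log2 difference of -0.39 ± 0.15 (SE, edgeR, adjusted p = 0.717). DESeq2 on the 12 males called it (adjusted p = 0.0145, up to 1 over the alternatives).

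**Figure D3:**
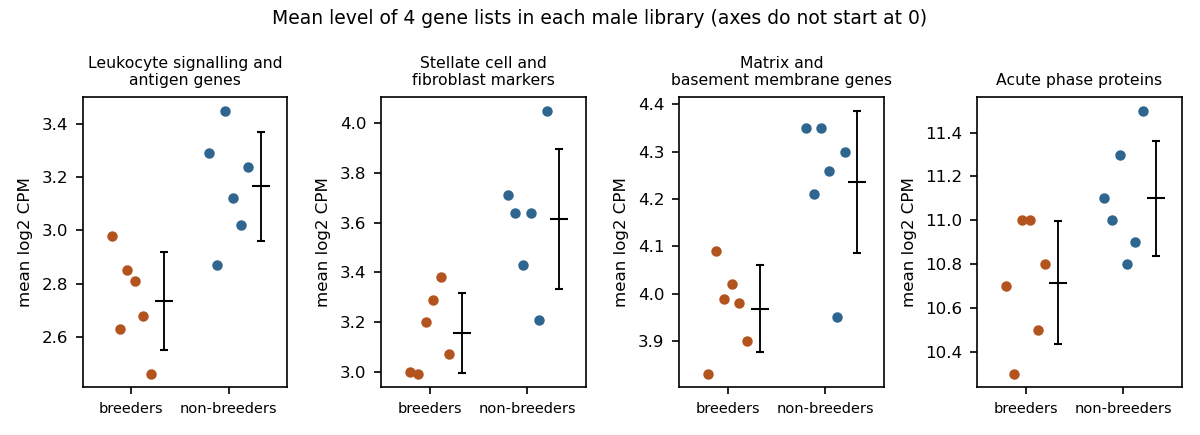
Mean log2 CPM of the tested members of 4 gene lists in each male library, 1 point per animal in the order 1 to 6, with the mean ± SD of each group; the y axes do not start at 0. In all 4 lists the groups overlap, and in the matrix list male non-breeder 5 at 3.95 is the only non-breeder among the breeders, which lie between 3.83 and 4.09.

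Most genes of secreted hepatocyte plasma proteins had log2 differences below 0, with 0 past an adjusted p of 0.05. Transferrin (TF), the iron carrier of plasma, was at 8250, 11800 and 18100 CPM in breeders and at 14500, 20000 and 26500 CPM in non-breeders. Hemopexin (HPX), which binds free heme, was at 3320, 4370 and 6400 CPM against 4340, 8430 and 13900 CPM. In both genes the ranges overlapped, and the log2 differences were -0.69 ± 0.21 and -0.88 ± 0.27 (SE, edgeR, adjusted p = 0.599 for each). C-reactive protein (CRP), an acute phase pentraxin, was at 191, 271 and 282 CPM against 294, 392 and 582 CPM, and fetuin (AHSG), which binds calcium phosphate and falls in the acute phase in humans, at 9610, 10700 and 11200 CPM against 11500, 12800 and 15300 CPM. Neither overlapped, with log2 differences of -0.69 ± 0.27 and -0.31 ± 0.13 (SE, edgeR, adjusted p = 0.717 and 0.742). PGLYRP2, a secreted enzyme that cleaves bacterial peptidoglycan, was at 167, 198 and 280 CPM against 234, 304 and 459 CPM. ORM1, an acute phase glycoprotein, was at 1990, 3180 and 4910 CPM against 2590, 4990 and 16900 CPM, where the highest was non-breeder 3 and the next non-breeder 6, at 7660 CPM.

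Of 26 acute phase proteins, 23 were below 0 and 9 (34.6%) were lower at an unadjusted p under 0.05, with 0 higher and a median log2 difference of -0.35. Without male non-breeder 3 the lower count was 6 (23.1%), beside 3.86% of all genes. With only the 3 breeders of longer reads it was 2 (7.69%), beside 2.29% of all genes. The list holds proteins that inflammation raises (CRP, ORM1, HPX) as well as proteins that it lowers (TF, AHSG), and both kinds were below 0. Complement components had 29 of 31 members below 0 and 6 lower (19.4%), with a median of -0.31. Among them were clusterin (CLU, -0.63 ± 0.23), properdin (CFP, -0.63 ± 0.27), vitronectin (VTN, -0.26 ± 0.12) and the C1 inhibitor SERPING1 (-0.37 ± 0.17; SE, edgeR, adjusted p from 0.647 to 0.834). Without male non-breeder 3 only 3 of 31 (9.68%) were lower at that level, beside 3.86% of all genes. With only the breeders of longer reads it was 1 of 31 (3.23%), beside 2.29% of all genes. Coagulation and fibrinolysis genes had 3 of 26 members lower (11.5%), factor X (F10), CPB2 and the plasminogen activator PLAT, and a median of -0.11. Without the 3 libraries named above 0 of 26 were lower, beside 3.17% of all genes. With only the breeders of longer reads it was 1 of 26 (3.85%), beside 2.29% of all genes.

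Of genes of endoplasmic reticulum stress, HERPUD1 had the smallest p. HERPUD1, a membrane protein of endoplasmic reticulum-associated degradation, was at 96.7, 146 and 181 CPM in breeders and at 167, 238 and 307 CPM in non-breeders, a log2 difference of -0.76 ± 0.20 (SE, edgeR, adjusted p = 0.526). The pseudokinase TRIB3 was alike in breeders, between 49.9 and 75.4 CPM, while non-breeders 1, 2 and 5 had 135, 236 and 212 CPM and the others 46.8 to 67.4 CPM. Calreticulin (CALR), a chaperone, was at -0.57 ± 0.21 and protein disulfide isomerase (P4HB) at -0.28 ± 0.12 (SE, edgeR, adjusted p = 0.647 and 0.799). Of 27 endoplasmic reticulum chaperone and stress genes 5 were lower (18.5%), 0 higher, and the median was -0.19. Without male non-breeder 3 the lower genes were 3 of 27 (11.1%), beside 3.86% of all genes. With only the breeders of longer reads they were 2 of 27 (7.41%), beside 2.29% of all genes. Among 16 heat shock genes the co-chaperone BAG3 was the 1 at an unadjusted p under 0.05, at -0.60 ± 0.29 (SE, edgeR, adjusted p = 0.834).

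Immediate early genes, which are transcribed within minutes of a stimulus, varied strongly between animals. NR4A3, an orphan nuclear receptor, was at 0.326, 0.546 and 2.05 CPM in breeders and 0.0697, 1.54 and 30.7 CPM in non-breeders. Non-breeder 5 had 30.7 CPM while non-breeder 6 was the lowest of all males. The fitted log2 difference of -3.10 ± 0.90 (SE, edgeR, adjusted p = 0.585) moved to -1.42 without non-breeder 5. NR4A2, of the same receptor family, and JUND, a subunit of the AP-1 factor, were at -2.46 ± 0.92 and -0.89 ± 0.40 (SE, edgeR, adjusted p = 0.668 and 0.812), with their highest levels, 109 and 76.7 CPM, in the same animal. Of 19 such genes 3 were lower (15.8%), the median was -0.50, and without non-breeder 3 it was -0.13. GADD45G, a growth arrest and DNA damage-inducible gene, was at 0.913, 3.81 and 6.11 CPM in breeders and 3.5, 15.7 and 45.3 CPM in non-breeders, where only non-breeder 4 fell within the breeder range (log2 difference -2.42 ± 0.68, SE, edgeR, adjusted p = 0.585). DESeq2 on the 12 males called it (adjusted p = 0.008, up to 1 over the alternatives, without breeder 2 and without breeder 6).

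Cyclin D1 (CCND1), which drives cells from G1 into S phase, was among the 12 lower genes of smallest p. It was at 14.3, 25 and 35.4 CPM in breeders and at 16.6, 64.2 and 138 CPM in non-breeders. Non-breeder 3, at 16.6 CPM, was the only non-breeder in the breeder range. Its log2 difference was -1.47 ± 0.39 (SE, edgeR, adjusted p = 0.526), and -1.68 without non-breeder 3. CDKN1B, the inhibitor p27 of cyclin-dependent kinases, had the opposite sign at 0.39 ± 0.16, and MCM4, a subunit of the replicative helicase, was at -0.54 ± 0.25 (SE, edgeR, adjusted p = 0.749 and 0.82). Of 20 tested G1 and S phase genes these 3 were at an unadjusted p under 0.05 and the median was -0.22. Mitotic genes had low counts: BUB1B was between 0.0595 and 0.506 CPM in breeders and between 0.31 and 1.12 CPM in non-breeders, and TOP2A between 0.0685 and 0.799 CPM against 0.578 and 2.3 CPM. Of 20 mitotic genes listed 10 passed the filter, 2 of these were lower at an unadjusted p under 0.05 and the median was -0.35. MKI67, the usual proliferation marker, had 29 counts over all 12 males and was not tested.

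Of the other lower genes, GUF1, a mitochondrial translation factor, was at 3.42, 3.95 and 4.57 CPM in breeders and 5.51, 6.44 and 7.53 CPM in non-breeders. ARMCX3, a mitochondrial outer membrane protein, was at 11.8, 14.4 and 19.8 CPM against 16.8, 28.5 and 34.1 CPM. GUF1 did not overlap and ARMCX3 did in non-breeder 4. DESeq2 on the 12 males called both at an adjusted p of 0.00455, where edgeR gave 0.526 and 0.722. INSC, an adaptor of spindle orientation, and CEACAM20, an adhesion molecule, also did not overlap, at -0.93 ± 0.39 and -0.87 ± 0.27 (SE, edgeR, adjusted p = 0.783 and 0.599). LRRC42 had the largest log2 difference of the 12 lower genes, -2.14 ± 0.59 (SE, edgeR, adjusted p = 0.585), but rested on non-breeders 1, 2 and 5 with 17.9, 102 and 40.7 CPM. The other non-breeders, at 4.2 to 5.85 CPM, lay within the breeder range of 3.98 to 8.56 CPM.

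**Figure D4:**
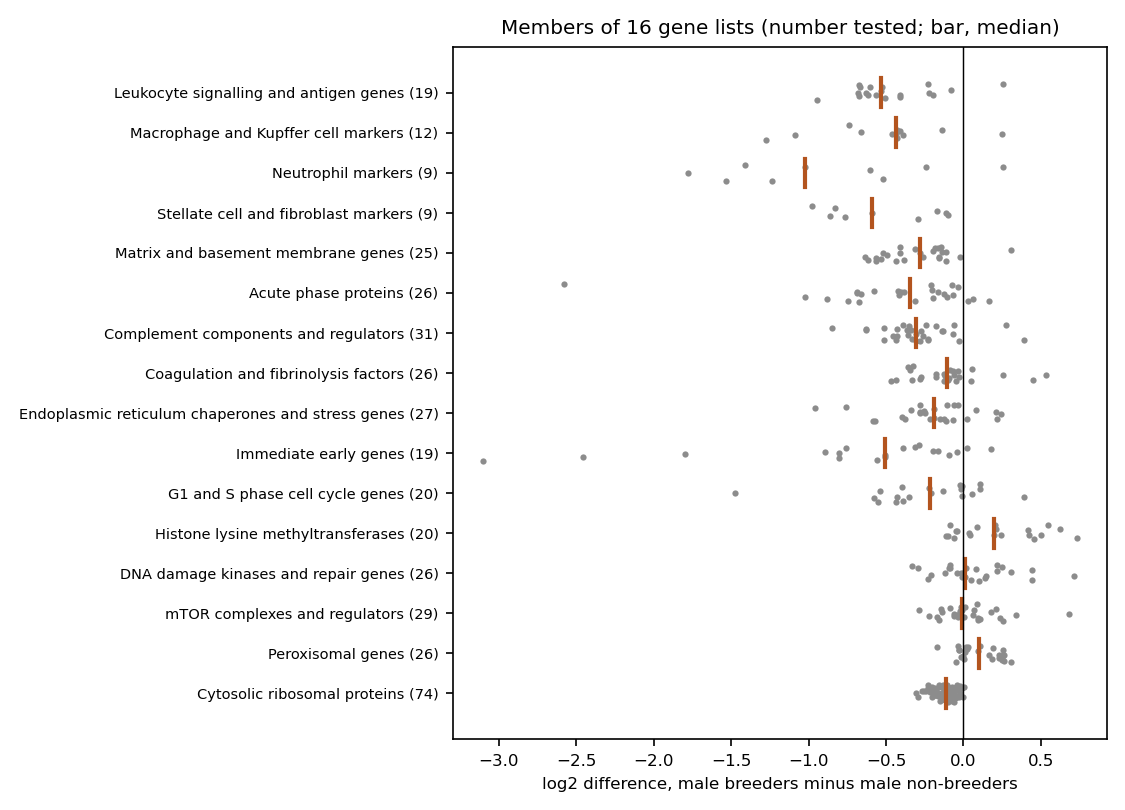
The log2 difference between male breeders and male non-breeders for each tested member (grey points) of 16 gene lists, with the list median as a bar and the number of tested members in brackets. Among these lists, medians lie furthest below 0 for neutrophil (-1.03), stellate cell (-0.59), leukocyte signalling (-0.53) and immediate early genes (-0.50), and above 0 for histone lysine methyltransferases (0.20) and peroxisomal genes (0.10).

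Genes by which the liver handles hormones were examined because male breeders reproduce. SERPINA6, corticosteroid-binding globulin, carries glucocorticoids in plasma. It was at 16.4, 46.1 and 52.1 CPM in breeders and at 9.93, 14.6 and 32.9 CPM in non-breeders. Breeders 1 to 5 were all above the highest non-breeder, number 4, and breeder 6 lay among the non-breeders. On the log2 scale it differed by 1.28 ± 0.34 (SE, 2.43-fold, edgeR, adjusted p = 0.526), and over the alternatives the adjusted p ran from 0.073 to 1, the latter without breeder 2. The glucocorticoid receptor NR3C1 was at 39, 52.7 and 62.2 CPM against 8.29, 47 and 74.4 CPM, where the lowest value was again non-breeder 3. PER1, a clock gene that glucocorticoids induce, had a log2 difference of -0.65 ± 0.31 (SE, edgeR, adjusted p = 0.85).

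The sex steroid genes did not separate the groups. The oestrogen receptor ESR1 was at 1.66, 2.57 and 6.19 CPM in breeders and 1.71, 4.53 and 11.4 CPM in non-breeders, with a log2 difference of -0.74 ± 0.76 (SE, 95% interval -2.31 to 0.83, edgeR, adjusted p = 1). SRD5A1, a 5 alpha-reductase that reduces testosterone and other steroids, was at 41.3, 47.6 and 57.3 CPM against 34.2, 40.2 and 57.7 CPM, at 0.18 ± 0.14 (SE, edgeR, adjusted p = 0.993). HSD17B2, which oxidizes oestradiol and testosterone, was low throughout, between 0.13 and 0.298 CPM in breeders and between 0.142 and 1.81 CPM in non-breeders, and its log2 difference of -1.58 ± 0.64 (SE, edgeR, adjusted p = 0.717) moved to -0.80 without non-breeder 2. Of 21 genes of steroid binding and metabolism 1 was higher and 1 lower at an unadjusted p under 0.05, and the median was 0.12. SHBG, sex hormone-binding globulin, had 22 counts over the 12 males and was not tested. GHR, the growth hormone receptor, was not analysed here.

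Growth hormone and IGF genes gave mixed values. IGF1 was at 220, 324 and 372 CPM in breeders and 242, 335 and 823 CPM in non-breeders, with 823 CPM in non-breeder 2, and a log2 difference of -0.41 ± 0.24 (SE, edgeR, adjusted p = 0.927). IGFBP1, an IGF-binding protein suppressed by insulin, was at 360, 541 and 1320 CPM against 456, 1350 and 1940 CPM, and IGFBP3, the main plasma carrier of IGF1, at 403, 467 and 534 CPM against 530, 601 and 882 CPM. They were at -0.85 ± 0.38 and -0.42 ± 0.17 (SE, edgeR, adjusted p = 0.812 and 0.717). CISH, a feedback inhibitor that growth hormone induces through STAT5, was at 7.25, 21.2 and 165 CPM in breeders and 11, 14.8 and 44.8 CPM in non-breeders. Breeders 5 and 6, at 165 and 91.4 CPM, carried its log2 difference of 1.39 ± 0.65 (SE, edgeR, adjusted p = 0.834), which was 0.59 without breeder 5.

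Metabolic gene lists were close to 0 in the fit of all libraries. In cholesterol synthesis (26 tested), fatty acid and triglyceride synthesis (26), mitochondrial fatty acid oxidation (23), peroxisomal (26), bile acid (18), glucose (25), antioxidant (26), circadian (16), respiratory chain (50) and proteasome genes (31), 0 members had an unadjusted p under 0.05. Their medians lay between -0.06 for respiratory chain and 0.10 for peroxisomal genes, beside -0.02 for all genes. CYP7A1, the rate-limiting enzyme of bile acid synthesis, was at 43.7, 109 and 190 CPM in breeders and 41.6, 97.3 and 207 CPM in non-breeders. Its log2 difference was -0.04 ± 0.56, that of FGF21, a fasting hormone of the liver, -0.63 ± 0.77 and that of HAMP, which encodes the iron hormone hepcidin, 0.16 ± 0.52 (SE, edgeR, adjusted p = 1 for each). ABCA1, the exporter of cholesterol to high-density lipoprotein, was at 53.3, 68 and 88.9 CPM against 18.2, 40.9 and 65.1 CPM (0.79 ± 0.24), and CD36, a fatty acid transporter, at 36.7, 56.5 and 60.6 CPM against 47.5, 68.4 and 125 CPM (-0.51 ± 0.22; SE, edgeR, adjusted p = 0.599 and 0.799). PLIN5, a lipid droplet protein, did not overlap between 36.6 to 48.5 CPM and 18.6 to 36.4 CPM, at 0.40 ± 0.21 (SE, edgeR, adjusted p = 0.879).

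CYP2E1, the cytochrome P450 that oxidizes ethanol, was the most variable of the metabolic genes. Breeders had 8.14, 143, 2460, 371, 23.8 and 10.4 CPM for animals 1 to 6, and non-breeders 11700, 4970, 3030, 12.5, 7750 and 8460 CPM. Thus 5 of 6 non-breeders were above all breeders, while non-breeder 4 was among the lowest breeders. The log2 difference was -3.58 ± 1.64 (SE, 95% interval -6.98 to -0.17, edgeR, adjusted p = 0.812) and -5.09 ± 1.79 in females (SE, edgeR, adjusted p = 1). It was the 1 of 25 xenobiotic metabolism genes at an unadjusted p under 0.05. Of 40 amino acid genes 2 (5%) were higher at an unadjusted p under 0.05, beside 2.67% of all genes. They were GLS2 and PRODH, which catabolize glutamine and proline, at 0.55 ± 0.23 and 0.46 ± 0.21 (SE, edgeR, adjusted p = 0.791 and 0.812). Among iron genes the ferroxidases HEPH and ceruloplasmin (CP) were at -1.13 ± 0.40 and -0.66 ± 0.28. Of 16 hepatocyte transcription factors 2 (12.5%) were higher at an unadjusted p under 0.05, beside 2.67% of all genes. Among them was ONECUT2 at 0.34 ± 0.15 (SE, edgeR, adjusted p = 0.812). Cytosolic ribosomal protein genes were below 0 in 73 of 74 with a median of -0.11, 0 at an unadjusted p under 0.05, and without male non-breeder 3 in 32 of 74 with a median of 0.01.

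The status difference of males was set beside that of females, which came from other animals in the same fit. Of the 24 genes of smallest p in males, 22 had the same sign in females, all 12 higher and 10 of the 12 lower, and in each of the 24 the male difference was the larger; the genes were picked for their male difference. In females 455 of 12306 genes (3.7%) had an unadjusted p under 0.05, among them 5 of the 24. Over all genes 60.3% had the same sign, and the differences correlated at r = 0.271 and rho = 0.278 across 12306 genes, which are not independent replicates. CCND1 was at -1.22 ± 0.40, CPEB2 at 0.76 ± 0.27 and NALCN at -0.78 ± 0.32 in females (SE). SERPINA6 and PGLYRP2 were at 1.61 ± 0.37 and -1.07 ± 0.23 in females beside 1.28 and -0.67 in males, and the difference between the sexes had an unadjusted interaction p of 0.504 and 0.226 with edgeR. The leukocyte, stellate cell and matrix lists had medians of 0.01, 0.01 and -0.14 in females beside -0.53, -0.59 and -0.28 in males, whereas acute phase and complement genes were at -0.31 and -0.25 in females, close to the -0.35 and -0.31 in males.

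Whether the status difference itself differed between the sexes was tested as an interaction. With edgeR 0 of 12306 genes (0%) passed an adjusted p of 0.05, 228 (1.85%) had an unadjusted p under 0.05, and limma voom called 0 and DESeq2 1, ANKRD1, which the filter on low counts had removed from the edgeR fit and which was named after its result was seen. Of the leukocyte genes, a list written with earlier results known, 5 of 19 were among the 228. They included PTPRC, ITGB2 and CD48 with differences of -0.50, -0.65 and -0.78 between the male and the female log2 difference. The 6 genes of smallest interaction p were SLC35G2, HOPX, DBN1, CCDC85A, USP11 and ANKRD55, each with opposite signs in the sexes. HOPX, an atypical homeodomain protein, was at -1.68 ± 0.57 in males and 1.32 ± 0.55 in females, and DBN1, the actin-binding protein drebrin, at -0.69 ± 0.26 and 0.60 ± 0.27 (SE). AFP, the fetal counterpart of albumin, was at 4.88, 9.9 and 16.2 CPM in male breeders and 4.98, 9.79 and 23.5 CPM in male non-breeders, a log2 difference of -0.28 ± 0.73 against -3.25 ± 0.79 in females (SE). Its interaction in edgeR had an unadjusted p of 0.0101 and an adjusted p of 1.

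**Figure D5:**
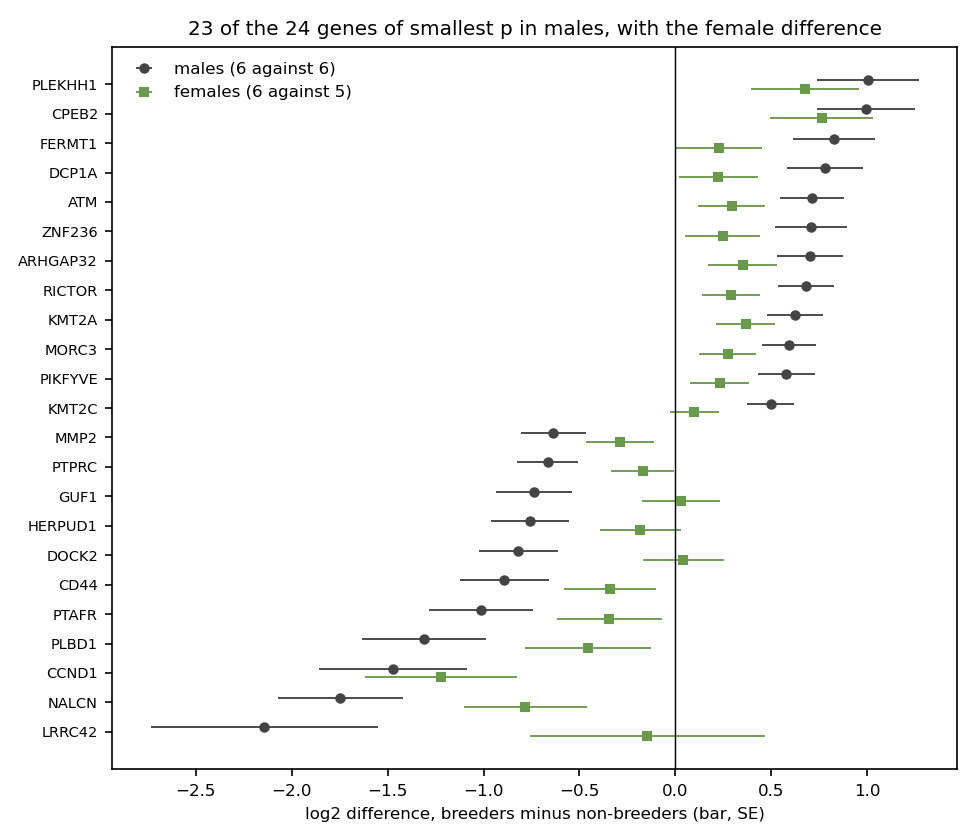
The log2 difference between breeders and non-breeders with its SE for 23 of the 24 genes of smallest p in males, in males (6 against 6, circles) and in females (6 against 5, squares). GUF1 and DOCK2 lie on opposite sides of 0 in the sexes, and the other genes shown do not.

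By the study's own list, male breeders 1 to 3 were sequenced with reads slightly shorter than those of breeders 4 to 6 and of all male non-breeders. Between the read lengths among male breeders 0 genes passed an adjusted p of 0.05 with edgeR, and 170 had an unadjusted p under 0.05. All 24 genes of smallest p had the same sign against the non-breeders in both read lengths. They were picked for their difference between these same animals, so the shared sign was largely set in advance and tests nothing about read length. CPEB2 differed most, at 1.30 in longer-read and 0.60 in shorter-read breeders on the log2 scale.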

How the data were processed

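Liver RNA of 23 naked mole-rats was sequenced from single-end, unstranded poly(A) libraries made with a TruSeq RNA v2 kit. Per the labels, the authors aligned reads with STAR 2.4.1d and counted them with HTSeq, and the deposited values are raw read counts per gene symbol, with multiple-mapping reads discarded. Reads of near-identical copies and of antisense partners are therefore uncertain, and the reference was the public naked mole-rat genome, whose assembly version is not given in the sources used here. The table held 16339 rows, of which 803 had no count and 25 carried a date where a symbol should stand, which are not named. Genes were kept by filterByExpr (minimum count 10, minimum total 15), scaled by TMM and fitted with 1 mean per group over all 23 libraries by edgeR 4.0.16 in R 4.3.3 (robust quasi-likelihood F-test, Benjamini-Hochberg adjustment, threshold 0.05). Depth was 13364037 to 20464409 counts per male library, so genes under about 1 CPM rest on few reads. Log2 CPM used a prior count of 2. Single values were compared by exact two-sided permutation tests over 924 splits. Replicate files differed by more than sampling noise (smallest chi-square per degree of freedom 26.5 in breeders and 27 in non-breeders).

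Named genes were the 12 higher and 12 lower of smallest p, up to 4 members of smallest p in each of 45 gene lists, a set of liver and hormone genes named whatever their values, every gene that DESeq2 1.42.0 or limma 3.58.1 called in males, up to 5 higher and 5 lower genes of largest difference among those without overlap and with a mean of at least 1 CPM, and the 6 genes of smallest interaction p. The members and lists were chosen with earlier results of these data known. Alternatives were DESeq2 size factors, no filter, DESeq2 on all or on the 12 male libraries, limma voom with quality weights, edgeR on the 12 males, age as a covariate, no robust estimation, thresholds of 0.01 and 0.1, a prior count of 0.5, and leaving out each male library. Leaving out the 3 libraries that stood apart was also tried, as was keeping only the breeders of longer reads. The counts within lists without single libraries and the zinc finger group were chosen after seeing the data. Some genes that the rule would name are not reported here. The model code was tested on simulated data.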

Additional observations from a re-analysis of the deposited data

Results flagged for a closer look

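In 39 of 340 groups of 6 male libraries (11.5%) 1 library lay far from the other 5, and 10 of the 39 were male non-breeder 3 and 2 male breeder 5. For independent groups of normal values about 1 in 20 would do so. These groups share the same libraries and many genes were named for their values, so that rate is no measure of chance here. Male non-breeder 3 had an MTRNR2L4 share of 11.9% of counts and was low for ATM (5.52 CPM), LIG4 (3.47 CPM), MPEG1 (0.321 CPM), NR3C1 (8.29 CPM), PLIN5 (18.6 CPM) and KDM6A (5.14 CPM), and high for IGFBP3 (882 CPM). Its mean log2 CPM was also low for cholesterol synthesis genes (5.69) and for genes that have an X and a Y copy in mammals (4.91). Male breeder 5 was low for COL4A2 (21.3 CPM) and CD36 (36.7 CPM).

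Male breeder 2 was the high library of ATM (24.2 CPM) and KMT2A (38.7 CPM), and the low one of CRP (191 CPM), CEACAM20 (1.64 CPM) and heat shock proteins (mean log2 CPM 5.5). Male breeder 3 and male non-breeder 6 were the high libraries of the antibody-secreting cell genes. IGJ was at 47.1 CPM, MZB1 at 2.74 CPM and CD79A at 1.37 CPM in the former, with a mean log2 CPM of 2.55 for B cell and plasma cell markers. In the latter, MZB1 was at 12.8 CPM, CD79A at 3.76 CPM and the mean at 4.46. Male breeder 3 was also low for proteasome subunits (mean log2 CPM 5.94).

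Male non-breeder 6 was high for TOP2A (2.3 CPM) and in the mean log2 CPM of coagulation factors (8.08), iron handling genes (7.08) and hepatocyte transcription factors (5.97), and low for CALR (537 CPM), THBD (22 CPM) and USP11 (0.488 CPM). SERPINA6 in male breeder 6 (16.4 CPM) and CYP2E1 in male non-breeder 4 (12.5 CPM) were the single libraries outside an otherwise separate group. The remaining ones were RELB in male breeder 1 (3.27 CPM), SASH3 in male breeder 6 (0.833 CPM), CPEB2 in male non-breeder 2 (27.2 CPM), cytokine and NF-kappa B genes in male non-breeder 4 (mean log2 CPM 3.57) and matrix genes in male non-breeder 5 (mean log2 CPM 3.95).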

How the results depend on the processing

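No paired analysis was possible because replicate numbers follow accession order and the labels tie no animals together. The count of genes past an adjusted p of 0.05 was 0 under edgeR with all libraries under every alternative scaling, filter, covariate and threshold, 2 with DESeq2 on 23 libraries, 13 with DESeq2 on the 12 males and 1 with limma voom, and 0 to 1 when single libraries were left out. For the male minus female difference DESeq2 called 1 gene and leaving out single libraries gave 0 throughout. At an unadjusted p under 0.05, leaving out single libraries gave 202 to 449 genes higher and 267 to 474 lower in breeders. Without male non-breeder 3, 3.66% of all genes were higher and 3.86% lower at that level. The shares were 2.78% and 3.17% without the 3 libraries that stood apart, and 2.4% and 2.29% with only the longer-read breeders. Genes without overlap numbered 26 to 59 with breeders above and 32 to 57 below on leaving out 1 library, 68 and 78 without the 3 libraries that stood apart, and 173 and 136 with only the longer-read breeders; groups of fewer animals separate more often.

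For named genes the direction reversed in 18 cases. With longer-read breeders only, the log2 difference was 0.00833 for ALB, 0.246 for CYP7A1, 0.166 for FGF21 and -0.0695 for SLC35G2. CYP7A1 was 0.0865 with age as a covariate. Leaving out single libraries, ALB ran from -0.127 to 0.0834, AFP from -0.473 to 0.0145, CYP7A1 from -0.257 to 0.213, HAMP from -0.0714 to 0.515, IGJ from -2.12 to 0.385, MZB1 from -2.56 to 0.902 and CD79A from -1.76 to 0.0997. Of the other values for named genes, 2738 kept direction and side of the threshold and 17 passed it only in the alternative. For the prior count of 0.5 only the direction was compared. The median of the cytokine and NF-kappa B list moved to -0.358 with longer-read breeders only. The causes of these shifts were not tested. Depth limits genes under about 1 CPM, such as NALCN, HSD17B2 and the mitotic genes.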
